A study of Mus musculus with 40 samples.

Results

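Ly6a, Clu, Anxa1, Anxa3, Spp1, Msln, Sprr1a and Ly6d are 8 genes that mark regenerating and fetal-like intestinal epithelium, and their signals were followed in mouse jejunum after doxorubicin. They were chosen by name: for each one, the transcript cluster (the unit into which the array groups its probes) that carries the symbol alone and has the highest mean over all arrays was taken, and each of the 8 had exactly 1 such cluster. They are 8 of the 36155 genes with a cluster of their own on the array. The study compared female Sftpd-/- mice (KO), which lack surfactant protein D in all tissues, with their Sftpd+/+ littermates (WT) on a C57BL/6N background, at an age of 10 to 12 weeks. Each mouse was injected intraperitoneally at day 0, either with 20 mg/kg doxorubicin or with isotonic saline. Jejunum was taken at day 3 or day 7. The groups are WT-NaCl3, KO-NaCl3, WT-Dox3, KO-Dox3, WT-NaCl7, KO-NaCl7, WT-Dox7 and KO-Dox7, named by genotype, treatment and day. Each group holds 5 mice with 1 array per mouse, 40 in all, and a mouse is named here by the number that its label gives.

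After injury, the epithelium of the mouse intestine can leave its homeostatic programme for a time and express genes that are otherwise typical of the fetal gut. Ly6a, which encodes the surface protein Sca-1, and Clu, which encodes the secreted chaperone clusterin, are known in mice as marks of such cells, and the transcriptional co-activator YAP is known to take part in their appearance. Most of the 8 genes are also active outside the epithelium: Ly6a in endothelium and leukocytes, Anxa1 in myeloid and stromal cells, Spp1 in macrophages, Msln in mesothelium and Clu in the follicular dendritic cells of lymphoid follicles. The samples were pieces of whole tissue, so more cells of a type and more RNA per cell cannot be told apart.

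Signals were deposited on the log2 scale, where 1 unit stands for a doubling. Of the 23 background probe sets on the array the mean was 3.45 and the highest 6.99. Genes with a signal under the latter cannot be separated from background with certainty, and their changes may be underestimated. Array medians were between 4.38 and 4.66, and arrays of the same group correlated with each other at 0.9748 to 0.9946. Sftpd itself had group means of 4.01 to 4.18, with WT mice as low as KO mice, so that this probe set checks no genotype label. In WT-Dox3, mouse 244 stood apart from the other 4 mice before any comparison was made: it had the highest signal of its group for 8 of the 8 genes, with a mean deviation of 2.05 from the group means. Changes in WT mice at day 3 are therefore also given without it.

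At day 3 after doxorubicin, Ly6a, Anxa1, Anxa3 and Spp1 rose in both genotypes, and none of the 8 genes fell. Changes were tested in limma with 1 mean per group, and p-values underwent Benjamini-Hochberg adjustment over 65956 clusters, with a threshold of 0.05. The fit shares 1 estimate of the spread over the 8 groups, so its standard errors are not those of the 2 compared groups alone. For Anxa1, Anxa3 and Spp1 the variance in WT-Dox3 was 59.0, 77.92 and 34.89 times that in WT-NaCl3. The 4 members that rose in WT mice stand against 2.6% of all clusters that rose and 2.13% that fell, and the 4 in KO mice against 5.66% that rose and 3.68% that fell. Of all clusters, 23.0% had a group mean above the highest background probe set, while of the 8 genes all but Spp1 and Msln did. The median log2 change of the 8 genes was 1.13 in WT mice and 1.36 in KO mice, against 0 and -0.04 over all clusters. Without mouse 244 the median in WT mice was 0.56, against 0 over all clusters. With only the 2 compared groups fitted, 1 of the 4 calls in WT mice held (Ly6a), and 0 did in the analysis of variance without moderation. The p-values of the latter have the size that the spread of the 2 compared groups alone gives. The loss of calls there therefore cannot be laid to the lack of moderation apart from the smaller number of arrays. Clu and Ly6d had higher means after doxorubicin in both genotypes but did not pass, and Msln and Sprr1a did not pass in either genotype.

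**Figure D1:**
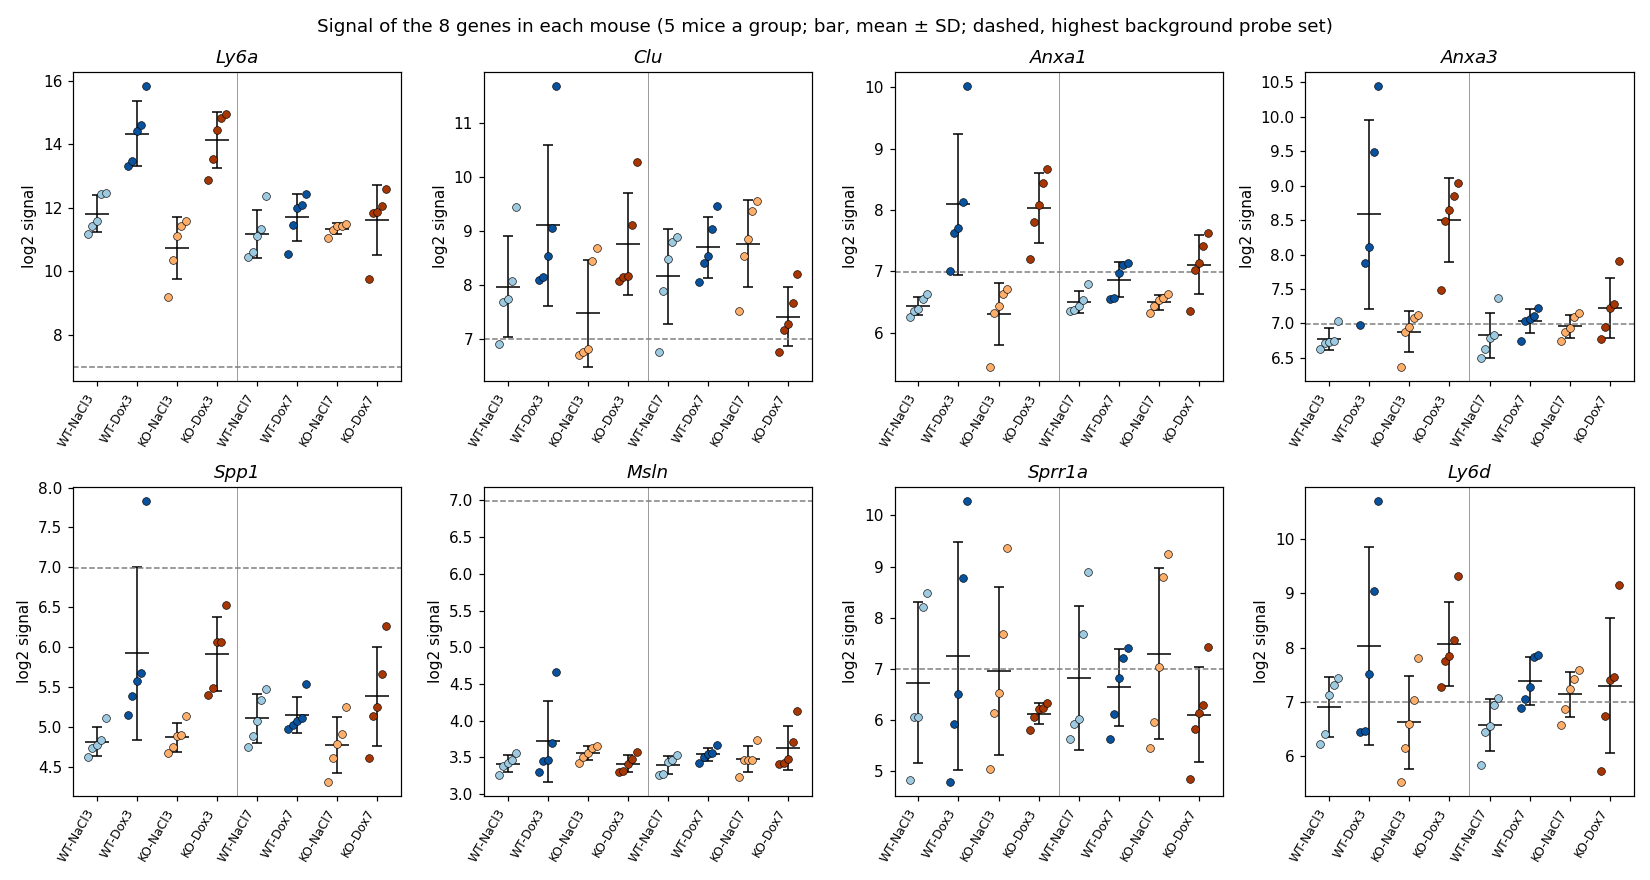
Log2 signal (vertical axis, a separate scale for each gene) of the 8 genes in each of the 40 mice by group, with the group mean ± SD as a bar and the highest background probe set, 6.99, as a dashed line. The doxorubicin mice of day 3 lie above their saline mice without overlap for Ly6a, Anxa1 and Spp1 in both genotypes, Msln lies below the dashed line in all mice, and Sprr1a spans a wide range in every saline group.

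Ly6a (chromosome 15, 74994877 to 74998031, minus strand, GRCm38) encodes Sca-1, a small surface protein of the Ly6 family that is held to the membrane by a lipid anchor. In WT-NaCl3, its signals were 11.16, 11.44, 11.59, 12.44 and 12.46, and in WT-Dox3 they were 13.33, 13.46, 14.43, 14.61 and 15.84. In KO-NaCl3 they were 9.19, 10.36, 11.11, 11.42 and 11.58, and in KO-Dox3 they were 12.89, 13.53, 14.45, 14.84 and 14.94. All treated mice of day 3 lay above all saline mice of the same genotype, by a gap of 0.87 in WT mice and 1.31 in KO mice. The rise of Ly6a in WT mice was 2.52 ± 0.50 on the log2 scale (estimate ± standard error, 5.72-fold, limma adjusted p = 0.00138), and in KO mice it was 3.40 ± 0.50 (10.5-fold, adjusted p = 7.53e-06). Without mouse 244 the change in WT mice was 2.14. At day 7 neither change passed, at 0.53 in WT and 0.27 in KO mice (adjusted p = 0.860 and 0.872). The signals were 10.44, 10.59, 11.11, 11.32 and 12.37 in WT-NaCl7 and 10.54, 11.45, 11.98, 12.09 and 12.44 in WT-Dox7, which overlap widely. In KO-NaCl7 they were 11.04, 11.31, 11.43, 11.44 and 11.50, and in KO-Dox7 they were 9.74, 11.82, 11.87, 12.05 and 12.60. In KO-Dox7, 4 mice were above all controls and mouse 136, at 9.74, was below all of them. In the order of group means, WT-Dox3 (14.33) and KO-Dox3 (14.13) came first, and the step of 2.31 from there to WT-NaCl3 was the only one of the 7 steps at which the neighbouring groups did not overlap.

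Ly6d (chromosome 15, 74762056 to 74763567, minus strand) belongs to the same family and lies in the same gene cluster, and its protein is known from squamous epithelia and lymphoid precursors. Its signals were 6.23, 6.42, 7.13, 7.32 and 7.44 in WT-NaCl3 against 6.44, 6.46, 7.51, 9.04 and 10.69 in WT-Dox3, where 3 mice were above all controls and 2 were within their range. In KO-NaCl3 they were 5.53, 6.16, 6.59, 7.04 and 7.80 against 7.27, 7.75, 7.85, 8.14 and 9.32 in KO-Dox3, again with 3 mice above all controls. The spread in WT-Dox3 (SD 1.83) was larger than the difference of the means. The changes were 1.12 ± 0.57 in WT mice (adjusted p = 0.352, 0.45 without mouse 244) and 1.44 ± 0.57 in KO mice (adjusted p = 0.121), and neither passed. At day 7 the group means were between 6.57 and 7.38, and 1 mouse, 42300 of KO-Dox7, reached 9.15.

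Anxa1 (chromosome 19, 20373434 to 20390671, minus strand) encodes annexin A1, which binds membrane phospholipids in the presence of calcium and is known for limiting inflammation and promoting closure of mucosal wounds. Saline mice of day 3 were close together, at 6.26, 6.36, 6.39, 6.55 and 6.63 in WT-NaCl3 and at 5.45, 6.33, 6.43, 6.63 and 6.71 in KO-NaCl3. After doxorubicin, the signals were 7.00, 7.62, 7.71, 8.13 and 10.02 in WT-Dox3 and 7.21, 7.80, 8.08, 8.44 and 8.66 in KO-Dox3. No treated mouse overlapped with a control, and all 20 saline mice of both days were below the highest background probe set while all 10 treated mice of day 3 were above it, so the folds below are as measured and may be underestimates. Anxa1 rose by 1.66 ± 0.32 in WT mice (3.16-fold, adjusted p = 0.00111, and by 1.18 without mouse 244) and by 1.73 ± 0.32 in KO mice (3.31-fold, adjusted p = 0.000246). At day 7, the treated mice were at 6.55, 6.57, 6.97, 7.10 and 7.13 (WT-Dox7) and at 6.36, 7.02, 7.13, 7.41 and 7.63 (KO-Dox7), and 3 of 5 and 4 of 5 of them were above all saline mice of their genotype. These differences of 0.36 ± 0.32 and 0.61 ± 0.32 did not pass (adjusted p = 0.846 and 0.456).

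Anxa3 (chromosome 5, 96793385 to 96845968, plus strand) encodes annexin A3, another membrane-binding annexin, which is abundant in neutrophil granules. It was at 6.63, 6.72, 6.73, 6.74 and 7.04 in WT-NaCl3 and at 6.98, 7.88, 8.11, 9.49 and 10.45 in WT-Dox3. Here 4 of 5 treated mice were above all controls, and mouse 146, at 6.98, was just under the highest of them. In KO mice the groups did not overlap, with 6.37, 6.88, 6.94, 7.08 and 7.12 in KO-NaCl3 and 7.48, 8.48, 8.65, 8.85 and 9.04 in KO-Dox3. Anxa3 rose by 1.81 ± 0.35 in WT mice (3.51-fold, adjusted p = 0.00115, and by 1.34 without mouse 244) and by 1.62 ± 0.35 in KO mice (3.08-fold, adjusted p = 0.00155). The treated WT mice were far more scattered than their controls, with an SD of 1.38 against 0.16. Only 1 of 5 WT-NaCl3 mice and 2 of 5 KO-NaCl3 mice were above the highest background probe set. The folds may therefore be underestimates, and the small SD of the controls was measured near background. At day 7 the changes were 0.21 and 0.27, and the group means lay between 6.82 and 7.22.

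Spp1 (chromosome 5, 104435111 to 104441053, plus strand) encodes osteopontin, a secreted ligand of CD44 and of integrins. Its signals were 4.62, 4.73, 4.77, 4.84 and 5.11 in WT-NaCl3 against 5.15, 5.39, 5.57, 5.67 and 7.83 in WT-Dox3, and 4.67, 4.75, 4.88, 4.90 and 5.14 in KO-NaCl3 against 5.40, 5.49, 6.06, 6.07 and 6.53 in KO-Dox3. The groups did not overlap in either genotype, but the gap in WT mice was only 0.04, and 39 of the 40 mice were below the highest background probe set. Spp1 was higher after doxorubicin by 1.11 ± 0.31 in WT (adjusted p = 0.0295) and by 1.04 ± 0.31 in KO (adjusted p = 0.0256). These were the least stable of the calls at day 3. Without mouse 244 the change in WT mice was 0.63 (adjusted p = 0.148), and 4 of the controls, mice 14, 44, 46 and 170, each ended the call when left out (adjusted p = 0.0561 to 0.0699). In KO mice, leaving out mouse 162, 196 or 248 of KO-Dox3 or mouse 182 or 254 of KO-NaCl3 gave adjusted p-values between 0.0529 and 0.0906. At day 7, KO-Dox7 mice were at 4.61, 5.14, 5.25, 5.66 and 6.27 and KO-NaCl7 mice at 4.31, 4.61, 4.79, 4.91 and 5.25, which is 0.61 ± 0.31 higher without passing the test (adjusted p = 0.433).

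Clu (chromosome 14, 65968483 to 65981548, plus strand) encodes clusterin, which binds misfolded proteins outside the cell. It was at 6.90, 7.68, 7.74, 8.07 and 9.45 in WT-NaCl3 and at 8.09, 8.15, 8.53, 9.06 and 11.69 in WT-Dox3. In KO-NaCl3 it was at 6.71, 6.75, 6.81, 8.44 and 8.68, and in KO-Dox3 at 8.08, 8.15, 8.17, 9.11 and 10.28. Treated and saline mice overlapped in both genotypes, where single saline mice were as high as treated ones. The changes of 1.14 ± 0.57 in WT mice (adjusted p = 0.337, 0.49 without mouse 244) and 1.28 ± 0.57 in KO mice (adjusted p = 0.186) did not pass. At day 7 Clu was the member with the largest difference between the genotypes. WT-Dox7 was at 8.05, 8.40, 8.53, 9.03 and 9.47 against 6.75, 7.88, 8.48, 8.79 and 8.89 in WT-NaCl7, whereas KO-Dox7 was at 6.75, 7.17, 7.27, 7.67 and 8.20 against 7.51, 8.54, 8.85, 9.38 and 9.55 in KO-NaCl7. Thus 3 of 5 KO-Dox7 mice were below all their controls. The change was 0.54 ± 0.57 in WT mice and -1.35 ± 0.57 in KO mice (95% interval -2.50 to -0.21, adjusted p = 0.315).

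Sprr1a (chromosome 3, 92483954 to 92485881, minus strand) encodes a small proline-rich protein of the cornified envelope that is also known from stressed and injured tissues. Among saline mice its SD was between 1.41 and 1.67 in the 4 groups. WT-NaCl3 mice were at 4.83, 6.06, 6.06, 8.22 and 8.49 and WT-Dox3 mice at 4.79, 5.92, 6.51, 8.77 and 10.28, so that 1 treated mouse was below all controls and 2 were above. In KO-NaCl3 the signals ranged from 5.05 to 9.37 with a median of 6.53, and in KO-Dox3 all 5 mice were between 5.81 and 6.33. The SD in KO-Dox3 was 0.20, against 1.65 in KO-NaCl3. All 5 of these KO-Dox3 signals were below the highest background probe set, and Sprr1a was not above it in 26 of the 40 mice. The changes were 0.52 ± 0.86 in WT mice and -0.83 ± 0.86 in KO mice (adjusted p = 0.858 and 0.713), and without mouse 244 the value in WT mice was -0.23. The 95% intervals with all mice, -1.23 to 2.27 and -2.57 to 0.92, allow changes in either direction. At day 7 the saline mice again reached 8.89 (WT-NaCl7) and 9.24 (KO-NaCl7), while the highest treated mice were at 7.40 and 7.43.

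Msln (chromosome 17, 25748613 to 25754378, minus strand) encodes mesothelin, a surface protein of mesothelial cells. It lay between 3.24 and 4.67 in all 40 mice, below the highest background probe set, and its only signals over 4 were 4.67 in mouse 244 of WT-Dox3 and 4.13 in mouse 116 of KO-Dox7. The changes at day 3 were 0.30 ± 0.15 in WT mice, 0.06 without mouse 244, and -0.14 ± 0.15 in KO mice (adjusted p = 0.356 and 0.727 with all mice). At this brightness a change of Msln was not detectable.

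**Figure D2:**
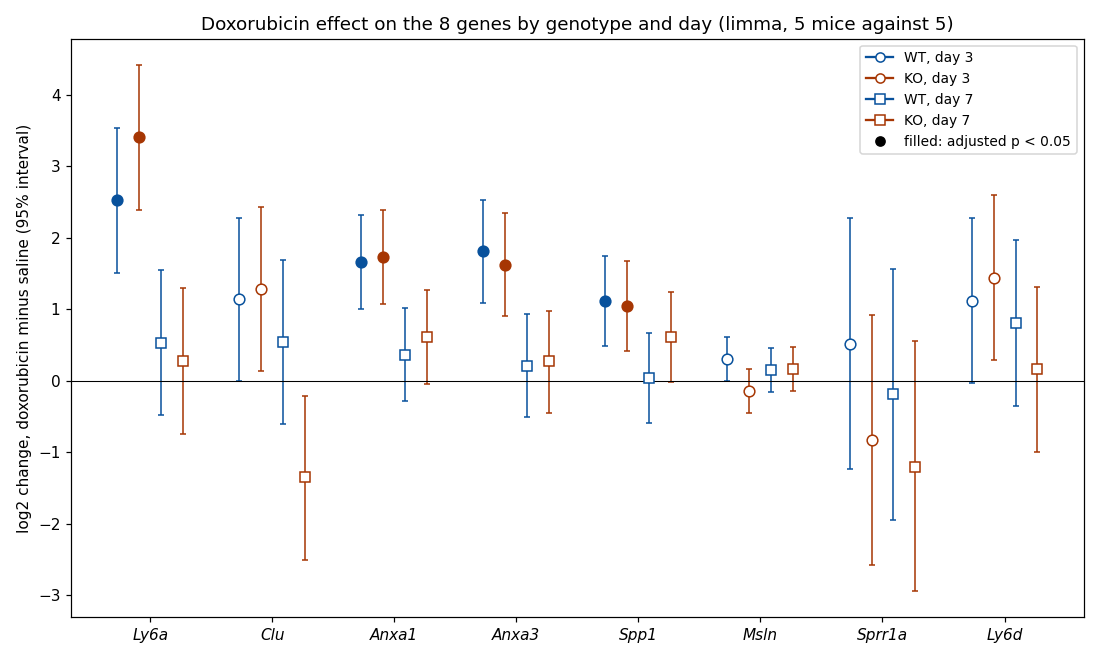
Log2 change after doxorubicin (vertical axis) of the 8 genes, with 95% intervals from limma, for WT (blue) and KO mice (brown) at day 3 (circles) and day 7 (squares); filled symbols passed the threshold. At day 3 the 4 genes Ly6a, Anxa1, Anxa3 and Spp1 are filled in both genotypes, and at day 7 no symbol is filled.

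Without overlap between treated and saline mice, Ly6a, Anxa1 and Spp1 were higher in WT mice and Ly6a, Anxa1, Anxa3 and Spp1 in KO mice at day 3. Over all clusters, the share in which all treated mice lay above all controls was 2.15% and 4.9%. At day 7 this held for none of the 8 genes in either genotype, with a share over all clusters of 0.986% in WT mice and 1.68% in KO mice.

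At day 7, 0 of the 8 genes passed in WT mice and 0 in KO mice in limma, nor did any in the analysis of variance without moderation. At an unadjusted p under 0.05 there were 0 in WT mice, against 8.51% of all clusters, and 1 (Clu, lower) in KO mice, against 12.1%. Few clusters passed at all on this day: 0.0106% rose and 0.00758% fell in WT mice, and 0.318% rose and 0.602% fell in KO mice. The change in the doxorubicin effect from day 3 to day 7 was tested directly, averaged over the genotypes, where 7.35% of all clusters passed. Ly6a (-2.55 ± 0.50, adjusted p = 0.000718), Anxa1 (-1.20 ± 0.32, adjusted p = 0.0150) and Anxa3 (-1.48 ± 0.35, adjusted p = 0.00585) had smaller effects at day 7. Clu (-1.62 ± 0.57, adjusted p = 0.0782) and Spp1 (-0.75 ± 0.31, adjusted p = 0.161) did not pass, although Clu did without mouse 220 of KO-NaCl3, 272 of KO-NaCl7, 190 of WT-NaCl3 or 112 of WT-NaCl7 (adjusted p = 0.0407 to 0.0480).

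Among treated mice alone, Ly6a was lower at day 7 than at day 3, with a change of -2.63 for WT (adjusted p = 0.00125) and -2.51 for KO (adjusted p = 0.000828). The treated mice of the 2 days did not overlap: the lowest WT-Dox3 mouse was at 13.33 and the highest WT-Dox7 mouse at 12.44, and in KO mice these values were 12.89 and 12.60. For Anxa3 the change was -1.55 in WT (adjusted p = 0.00797) and -1.28 in KO mice (adjusted p = 0.0205). Anxa1 had a change of -1.23 in WT (adjusted p = 0.0247) and of -0.93 in KO mice, of which the latter did not pass (adjusted p = 0.0854). These 3 members in WT mice and 2 in KO mice stand against 3.03% and 6.5% of all clusters, in either direction. Without mouse 244, the value of Anxa1 in WT mice was -0.75 (adjusted p = 0.108), and in KO mice it then passed (adjusted p = 0.00839), as it did without mouse 196 of KO-Dox3 (adjusted p = 0.0305). In WT mice the call of Anxa1 was also lost without mouse 232 of WT-Dox3 or mouse 102 or 42263 of WT-Dox7 (adjusted p = 0.0584 to 0.0678). With array weights the call of Anxa1 was lost in WT mice (adjusted p = 0.0502) and gained in KO mice (adjusted p = 0.0305). The call of Anxa3 in KO mice was lost without mouse 2, 162 or 236 of KO-Dox3 or mouse 136 of KO-Dox7 (adjusted p = 0.0506 to 0.0766). Between the saline mice of the 2 days, 0 of the 8 genes and 0% of all clusters passed (0 of the 8 at an unadjusted p under 0.05, against 6.93% of all clusters).

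The question of the study was whether surfactant protein D alters the response to doxorubicin. For these 8 genes, no effect of the genotype passed the threshold. The interaction of genotype with doxorubicin was called for 0 of 8 genes at day 3 and at day 7, and for 0% of all clusters on each day. At an unadjusted p under 0.05 there was 1 gene on each day, against 6.49% of all clusters at day 3 and 6.06% at day 7. These were Msln at day 3 (-0.44 ± 0.22, limma adjusted p = 0.767, and -0.20 without mouse 244) and Clu at day 7 (-1.89 ± 0.80, adjusted p = 0.804). Among treated mice, KO and WT differed in 0 of 8 genes, against 0.0106% of all clusters at day 3 and 0.00606% at day 7. The 95% intervals of the difference at day 3 (KO minus WT) were -1.22 to 0.81 for Ly6a, -0.71 to 0.60 for Anxa1, -0.80 to 0.64 for Anxa3 and -0.64 to 0.62 for Spp1. They depended on mouse 244. Without it the estimates went from -0.20 to 0.17 for Ly6a, from -0.06 to 0.42 for Anxa1, from -0.08 to 0.38 for Anxa3 and from -0.01 to 0.46 for Spp1, and the upper ends of the intervals became 1.19, 0.92, 0.99 and 0.93. For Clu at day 7 the difference was -1.28 (95% interval -2.43 to -0.14, adjusted p = 0.999). Among saline mice of both days, 0.599% of all clusters differed between the genotypes and 0 of these 8 genes did, with 0 at an unadjusted p under 0.05, against 19.4% of all clusters. The clusters that passed numbered 206 higher and 189 lower in KO mice, but 45 and 28 after quantile normalization and 1279 and 133 with each array centred on its median. Ly6a was at -0.45 ± 0.35 (KO minus WT, adjusted p = 0.489).

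Promoter sequence was at hand for 3 of the 8 genes, Anxa1, Spp1 and Sprr1a. They are shown because Anxa1 and Spp1 rose together at day 3 whereas Sprr1a did not, and because 2 motifs are often discussed for regenerating epithelium. These are GGAATG, bound by the TEAD partners of YAP, and TGANTCA, bound by AP-1, which is its own reverse complement. Each window runs from 250 bases before the RefSeq start site to 50 bases after it (GRCm38.p6, RefSeq), 5′ to 3′ on the strand of the gene, and capitals mark a match to either motif on either strand.
Anxa1, chr19:20390622-20390921, minus strand: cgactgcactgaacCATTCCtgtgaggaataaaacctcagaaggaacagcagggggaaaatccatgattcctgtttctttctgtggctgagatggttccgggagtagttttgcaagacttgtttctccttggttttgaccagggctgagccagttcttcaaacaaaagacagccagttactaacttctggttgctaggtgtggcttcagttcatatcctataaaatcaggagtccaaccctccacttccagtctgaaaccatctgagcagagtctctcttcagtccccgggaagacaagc
Spp1, chr5:104434861-104435160, plus strand: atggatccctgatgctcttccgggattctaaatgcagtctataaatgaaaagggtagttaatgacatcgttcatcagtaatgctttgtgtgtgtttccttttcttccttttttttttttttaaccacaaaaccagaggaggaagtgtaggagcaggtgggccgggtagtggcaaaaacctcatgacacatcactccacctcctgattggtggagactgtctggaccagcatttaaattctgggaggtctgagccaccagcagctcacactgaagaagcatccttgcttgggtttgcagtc
Sprr1a, chr3:92485832-92486131, minus strand: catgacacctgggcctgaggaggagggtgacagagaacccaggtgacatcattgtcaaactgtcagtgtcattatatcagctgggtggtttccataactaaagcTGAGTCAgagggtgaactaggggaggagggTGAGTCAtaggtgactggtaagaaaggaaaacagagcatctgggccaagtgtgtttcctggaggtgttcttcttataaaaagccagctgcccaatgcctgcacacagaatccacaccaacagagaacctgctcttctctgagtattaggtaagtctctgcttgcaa
The Anxa1 window held 1 match to the TEAD motif, CATTCC on the strand shown, 236 bases before the start site, and no match to the AP-1 motif. The Sprr1a window held 2 matches to the AP-1 motif, TGAGTCA at 146 and at 116 bases before the start site. The Spp1 window shown, and a second one at another annotated start, held neither. Of 32851 mouse promoter windows of this length, 14.7% held the TEAD motif and 7.8% the AP-1 motif, so a match is a description of the sequence only.

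Other genes described for fetal-like and regenerating epithelium moved in the same direction at day 3 in part. Of 24 such genes measured, 9 rose and 0 fell in WT mice (median 0.70) and 10 rose and 3 fell in KO mice (median 0.44). Cd44, a receptor of hyaluronan and osteopontin, rose by 2.39 and 2.61 in WT and KO mice. Il1rn, which encodes the antagonist of the interleukin-1 receptor, rose by 2.69 and 2.15, and Anxa8, another annexin, by 2.06 and 1.96. Over the 40 arrays, the means of Il1rn (6.34) and Anxa8 (5.23) were below the highest background probe set, while that of Cd44 was 9.71. The 3 genes that fell in KO mice were Cldn4 (fell by 2.36), a claudin of tight junctions, Lgals3 (fell by 0.51) and Cxadr (fell by 0.43). The count of 9 was 6 without mouse 244. The count of 10 was 5 without mouse 254 of KO-NaCl3 and 6 without mouse 182 of KO-NaCl3 or mouse 2 or 162 of KO-Dox3. Without mouse 236 of KO-Dox3 or mouse 254, 1 in place of 3 fell. With only the compared groups fitted, 1 of them rose in WT mice, and 0 did in the analysis of variance without moderation.

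Among ligands of the EGF receptor, which drive epithelial growth, 3 of 7 rose in each genotype and 0 fell. The median change of the 7 ligands was 0.12 in WT mice and -0.03 in KO mice. Areg rose by 2.83 and 3.28 in WT and KO mice and Ereg by 2.39 and 2.32. Btc, whose mean over the 40 arrays (6.69) was below the highest background probe set, rose by 1.29 and 0.93. This count was 3 whichever mouse was left out, but with only the compared groups fitted it was 0 in WT mice. Of 22 target genes of YAP, 5 rose and 2 fell in WT mice and 4 rose and 3 fell in KO mice, with medians of 0.24 and 0.02. F3, the tissue factor gene, rose by 1.53 and 1.17, Cyr61 (Ccn1) by 1.46 and 1.11 and Myof by 1.13 and 1.06, while Dock5 fell by 0.62 and fell by 0.85. Without mouse 244, 3 of the 22 rose in WT mice, and without mouse 170 of WT-NaCl3, 1 fell. In KO mice 2 rose without mouse 162, 254 or 292. Of 9 markers of crypt stem cells, 3 fell in WT mice (Olfm4 by 2.46, Lgr5 by 1.25 and Smoc2 by 0.46) and 1 in KO mice (Lgr5 by 0.89). In both genotypes 0 rose, and the median change of the 9 markers was 0.04 in WT mice and 0.11 in KO mice. Without mouse 244, 1 of them fell in WT mice and 2 in KO mice.

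Within the families of the members, some relatives moved with them. Of 9 other annexins, 3 rose in each genotype and 0 fell, with Anxa8 (above) and Anxa9 (0.63 and 0.64) in both. Of 15 other genes of the Ly6 family, 0 fell, whereas 4 rose in WT and 5 in KO mice. Ly6g6c rose by 2.40 and 2.96, Ly6c1 by 1.29 and 1.34 and Ly6c2 by 1.43 and 1.45. Anxa9 (4.88) and Ly6g6c (6.19) had means over the 40 arrays below the highest background probe set. Ly6 genes are close in sequence and whether their probes are shared was not examined, so the signals of Ly6a, Ly6c1 and Ly6c2 may not be independent. In WT mice the count of 4 was 2 without mouse 232 or 244 of WT-Dox3 or mouse 14, 170 or 190 of WT-NaCl3, and in KO mice the count of 5 was 3 without mouse 254. Of 11 other Sprr genes, 0 rose in either genotype, and 1, Sprr2b, fell in KO mice (fell by 1.23).

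Markers of cell types outside the epithelium and genes of 2 general responses moved at day 3 as well, and their part in the changes of the members was not tested. The mean log2 signal of 10 neutrophil genes ranged from 4.50 to 4.69 in WT-NaCl3 and from 4.92 to 7.00 in WT-Dox3, and from 4.30 to 4.71 in KO-NaCl3 and 4.85 to 5.34 in KO-Dox3. In WT mice 6 of these 10 rose, led by S100a8 (3.20), and in KO mice 1 did (Ltf, 0.90). The means of S100a8 (4.57) and Ltf (4.59) over the 40 arrays were below the highest background probe set. The mean of 10 macrophage genes was 8.01 ± 0.21 (SD, n = 5) in WT-NaCl3 and 8.62 ± 0.42 in WT-Dox3, and 7.64 ± 0.42 in KO-NaCl3 and 8.48 ± 0.18 in KO-Dox3. In each genotype 2 of them, Cd68 and Mrc1, rose. Of 7 endothelial genes 5 and 1 rose, and of 7 fibroblast genes 3 and 2 rose. With only the compared groups fitted, 0 neutrophil, 0 endothelial and 0 fibroblast genes rose in WT mice, and the endothelial count was 1 after quantile normalization and 2 after centring. Of 8 smooth muscle genes, 1 fell in WT mice and 6 in KO mice (median -1.12), or 4 to 7 in KO mice with 1 mouse left out. Among 12 genes of the interferon response, 5 rose in WT mice (median 0.87), and 3 without mouse 244, while 10 did in KO mice (median 1.67). Of 9 target genes of p53, which responds to DNA damage, 8 and 9 rose (medians 1.18 and 1.43), and 6 in WT mice without mouse 244. Without mouse 244, 3 neutrophil, 0 macrophage and 0 endothelial genes rose in WT mice and 5 neutrophil genes in KO mice. Leaving out other mice also moved these counts. Of 9 genes of squamous epithelium 0 rose and 0 fell in either genotype, and of 8 of the mesothelium 0 did in WT mice, while in KO mice 1 rose and 2 fell (median -0.26). The squamous genes averaged at most 4.63 in WT-Dox3, below the highest background probe set.

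**Figure D3:**
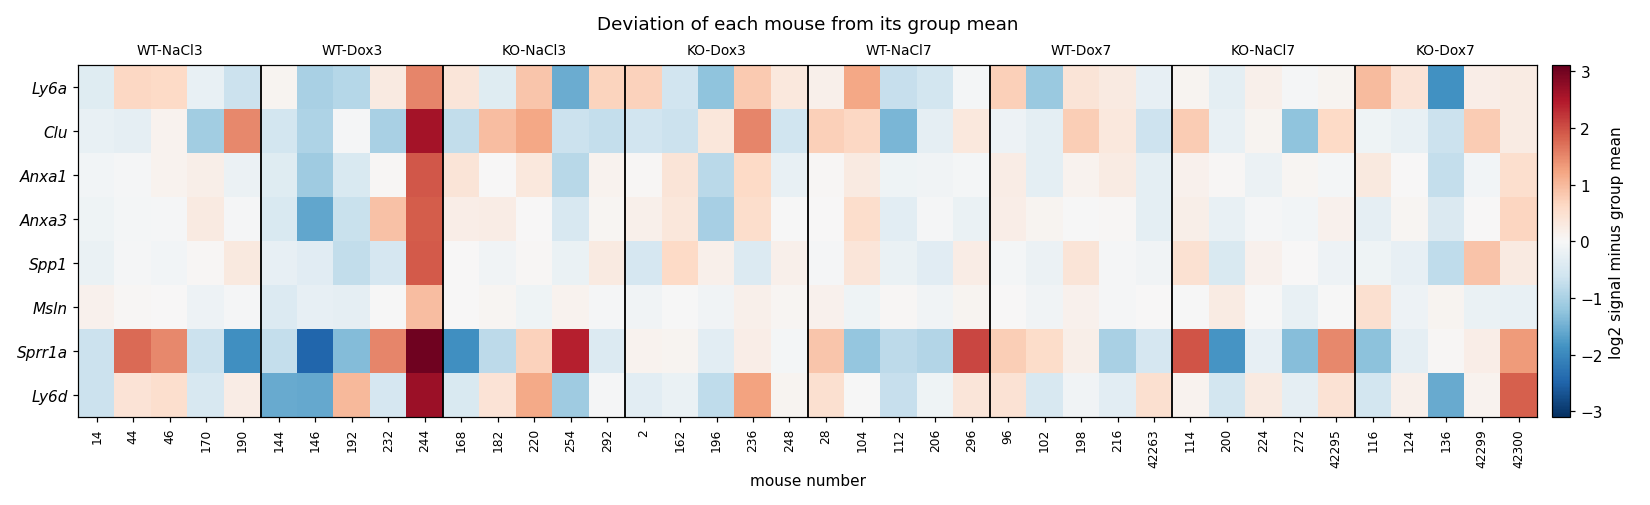
Deviation of each mouse from the mean of its group (colour, log2 signal) for the 8 genes, with the mice ordered by group. Mouse 244 of WT-Dox3 is red for all 8 genes, mouse 236 of KO-Dox3 is the highest of its group for 7 genes, and mouse 136 of KO-Dox7 is the lowest of its group for 6.

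Within groups, the 8 genes went together to unlike degrees, with Pearson r of pairs from 0.22 (Ly6a and Sprr1a) to 0.88 (Anxa1 and Anxa3). Mouse 244 was the highest of WT-Dox3 for 8 genes, mouse 236 the highest of KO-Dox3 for 7, and mouse 136 the lowest of KO-Dox7 for 6, while mouse 196 was the lowest of KO-Dox3 for 6. Mouse 244 was also the highest of its group in the mean of the neutrophil genes (7.00 against 4.92 to 5.68 in the other 4 mice), of 8 B cell genes (7.10 against 4.90 to 5.79) and of the macrophage genes (9.33), and the lowest in the mean of the stem cell markers (7.26). The deviations of each pair of genes from their group means were correlated over the 40 mice, and 7 of the 28 pairs passed (permutation within groups, 100000 draws, Benjamini-Hochberg over the 28). Anxa1 and Anxa3 went together most closely (Pearson r = 0.88, Spearman rho = 0.74, permutation adjusted p = 0.00014 and 0.00028), followed by Ly6a and Anxa1 (r = 0.75, rho = 0.72, adjusted p = 0.00014 and 0.00028). Without the 2 mice farthest out, these were 0.75 and 0.70, and without mouse 244 they were 0.81 and 0.75.

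Ly6d was in 4 of the 7 pairs, with Anxa1 (r = 0.70, rho = 0.41), Clu (r = 0.68, rho = 0.61), Anxa3 (r = 0.64, rho = 0.42) and Ly6a (r = 0.56, rho = 0.47). The permutation adjusted p-values of r were 0.00437, 0.00028, 0.0364 and 0.0160, and those of rho were 0.0883, 0.00177, 0.0883 and 0.0465. Without mouse 244 these r were 0.57, 0.57, 0.50 and 0.48. Ly6a and Anxa3 made up the last pair (r = 0.61, rho = 0.52, adjusted p = 0.00112 and 0.0189). Msln, Sprr1a and Spp1 were in none. Without mouse 244, 4 pairs passed in place of 7, and for Msln with Anxa1 the r went from 0.57 to 0.22. With each array centred on its median 16 pairs passed. On the signals as deposited, 13 pairs passed in place of 7 without mouse 196 of KO-Dox3, and 11 without mouse 254 of KO-NaCl3.

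**Figure D4:**
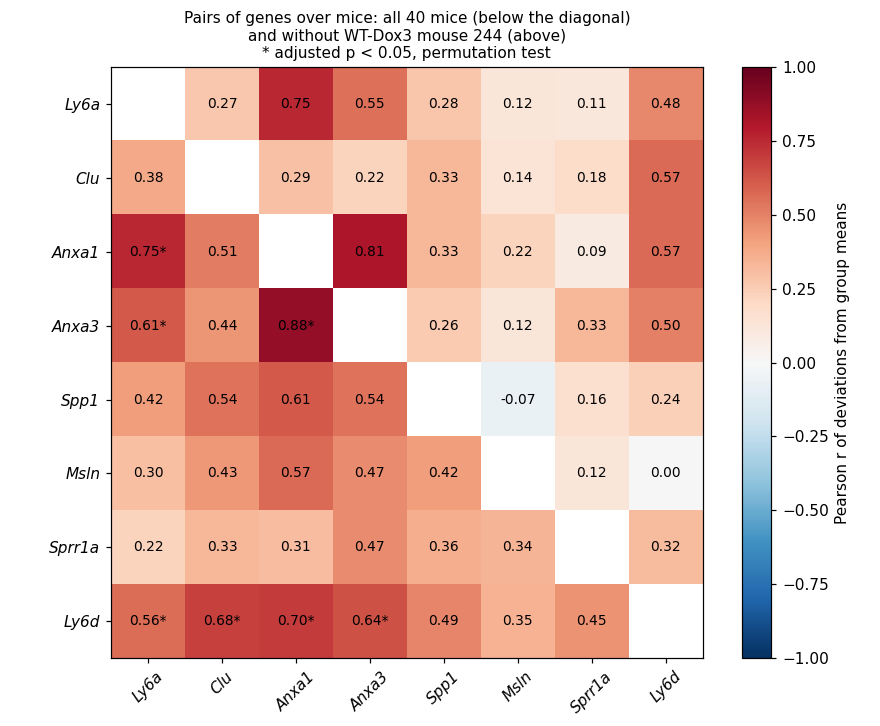
Pearson r between the deviations of 2 genes from their group means (colour and figures), over all 40 mice below the diagonal and without mouse 244 of WT-Dox3 above it; an asterisk marks an adjusted permutation p under 0.05. Anxa1 with Anxa3 is the highest pair at 0.88 and 0.81, and the values of Msln drop to between -0.07 and 0.22 without mouse 244.

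The genes whose signal was most like that of a member differed from member to member. Over the 40 arrays and among 7973 named genes above background, Anxa3 went with Il1rn (r = 0.98), with Tgfbr2, a receptor of TGF-beta (0.95), and with Lamc1, a laminin chain (0.94). Anxa1 went with Cyp1b1 (0.95), Myof (0.94) and Osmr, the oncostatin M receptor (0.94), and Ly6a with Ly6c1 (0.94), Tgfbr2 (0.93) and Slc43a3 (0.93). For these 3 members the likeness also held over the 8 group means, where r was between 0.97 and 0.99. Among the genes most like Spp1 were Lilrb4 and Gp49a (0.82 each), and Ly6d was most like Msn (0.80), Cp (0.79) and Il6st (0.78). Sprr1a was most like Ifrd1 (0.83), Zdhhc18 (0.83) and Lmo7 (0.81), none of which was among the 3 genes most like another member. For Msln no r was above 0.62 (Apob). Among the genes most like Clu were Cxcl13, which encodes the chemokine that guides B cells into follicles (0.89), and Pyhin1 (0.87). These are descriptions over arrays that share the treatment effect.

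Clu went with the B cell marker signal of the samples more closely than with any other of the cell marker lists. This was looked at after the values had been seen, by correlating the deviations of each of the 8 genes with those of the mean signal of 13 lists of cell type and response genes, 104 relations in all, of which 31 passed by permutation for Pearson's r. Clu against the mean of 8 B cell genes, among them Ms4a1, Cd79a, Cd79b and Pax5, had r = 0.88 and rho = 0.88 over 40 mice (permutation p = 1e-05 for each, the smallest that 100000 draws can give, adjusted p = 0.00026 and 0.000347). Without the 2 mice farthest on the B cell scale r was 0.83, and without mouse 244 it was 0.85. Anxa1 had no such relation with B cells among those that passed. Instead, Anxa1, Anxa3 and Ly6a went with macrophage genes (r = 0.73, 0.57 and 0.83), neutrophil genes (0.84, 0.83 and 0.60) and endothelial genes (0.81, 0.75 and 0.62), and rho was between 0.49 and 0.73 (permutation adjusted p of r up to 0.00406). They also went with p53 targets (r = 0.66, 0.76 and 0.66) and fibroblast genes (0.69, 0.60 and 0.58), where the adjusted p of r was at most 0.0130 and rho for Ly6a with fibroblast genes did not pass (0.44, adjusted p = 0.0518). Ly6a went further with the interferon response (r = 0.60, rho = 0.63, permutation adjusted p = 0.00118 and 0.00104) and with T cell genes (0.55 and 0.55, adjusted p = 0.00698 and 0.00689), and Ly6d with macrophage genes (0.66 and 0.52, adjusted p = 0.00118 and 0.00936) and B cell genes (0.56 and 0.60, adjusted p = 0.00406 and 0.00128). Msln went with the squamous genes (r = 0.76, rho = 0.67, permutation adjusted p = 0.000473 and 0.000743) and with the mesothelial genes (r = 0.51, rho = 0.57, adjusted p = 0.00118 and 0.00475), all of it near background.

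**Figure D5:**
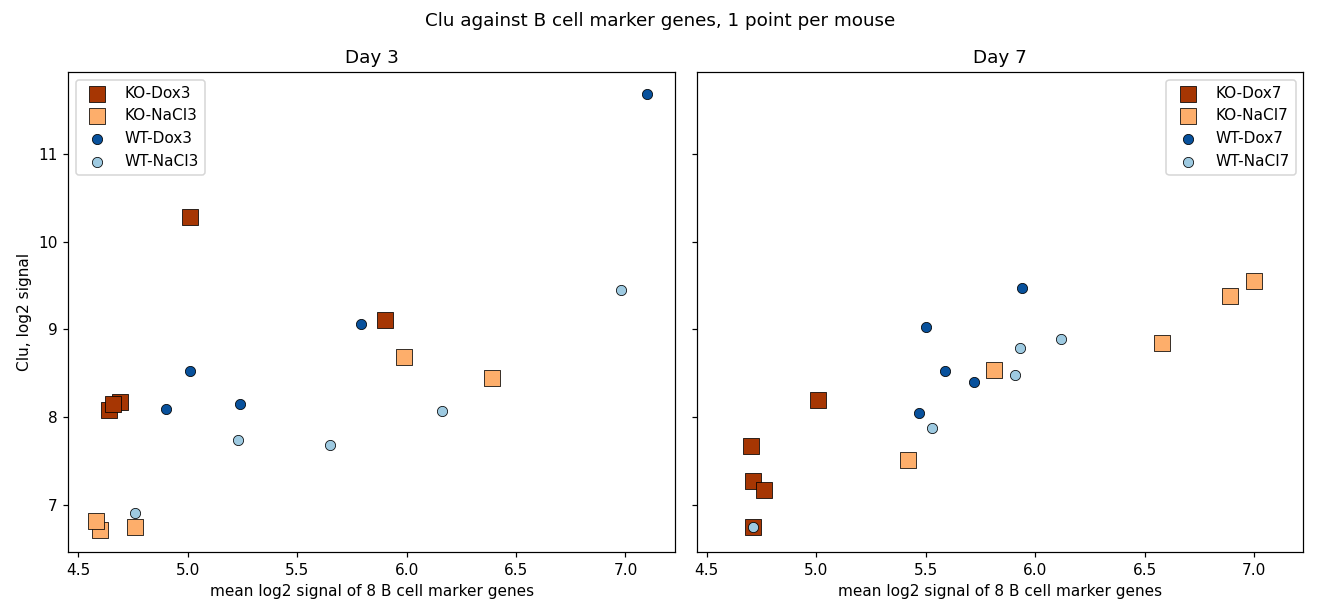
Clu signal (vertical axis, log2) against the mean log2 signal of 8 B cell marker genes (horizontal axis) in each mouse, at day 3 (left) and day 7 (right), with circles for WT and squares for KO mice. KO-Dox7 mice lie at 4.70 to 5.01 on the B cell axis, apart from KO-NaCl7 mice at 5.42 to 7.00, and at day 3 the doxorubicin mice lie above saline mice of like B cell signal.

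The B cell signal itself differed between mice of a group and, at day 7, with treatment. It ranged from 4.76 to 6.98 in WT-NaCl3, from 4.58 to 6.39 in KO-NaCl3 and from 5.42 to 7.00 in KO-NaCl7, but only from 4.70 to 5.01 in KO-Dox7. In KO mice at day 7, 4 of the 8 B cell genes fell (median of the 8, -1.54), a count that was between 0 and 6 with 1 mouse left out, and 0 fell or rose in WT mice. The fit was then repeated with the B cell mean of each mouse as a covariate, also after the values had been seen. Clu rose in that fit at day 3 in WT mice by 1.32 ± 0.28 (limma adjusted p = 0.00253) and in KO mice by 1.64 ± 0.28 (adjusted p = 8.39e-05), and its standard error went from 0.57 to 0.28. Ly6d passed in KO mice (1.67 ± 0.48, limma adjusted p = 0.0203). In that fit 5 of the 8 genes rose in WT mice and 6 in KO mice, against 2.78% and 5.68% of all clusters that rose. The covariate was chosen after Clu had been seen to go with it most closely in these same mice. The smaller standard error of Clu and the added calls are therefore a description and no independent evidence of a rise. Without mouse 244, the covariate fit gave 1.08 ± 0.29 for Clu in WT mice (adjusted p = 0.0267), and Spp1 in WT mice did not pass (0.70 ± 0.23, adjusted p = 0.0993). The interaction of doxorubicin with day for Clu was -0.91 with the covariate, in place of -1.62 (limma adjusted p = 0.0473, with 7.09% of all clusters passing). It includes KO-Dox7 and KO-NaCl7, whose B cell signals do not overlap, so it cannot decide whether the effect on Clu was smaller at day 7. Clu of KO-Dox7 against KO-Dox3 was -1.09 with the covariate (limma adjusted p = 0.0112, with 6.63% of all clusters passing). At day 7 the estimate for Clu in KO mice went from -1.35 to 0.61 ± 0.34 (adjusted p = 0.458), and the interaction with genotype from -1.89 to 0.07 ± 0.44. Ly6d in KO mice at day 7 went from 0.16 to 1.41 ± 0.58 and Spp1 from 0.61 to 1.17 ± 0.34 (adjusted p = 0.288 and 0.0942), and the interaction of Spp1 with genotype from 0.57 to 1.14 ± 0.44 (adjusted p = 0.794). In KO mice at day 7 the B cell signals of treated and saline mice do not overlap, so there the covariate and the treatment cannot be told apart. Ly6a, Anxa1 and Anxa3 had nearly the same changes at day 3 with the covariate, at 2.55, 1.69 and 1.84 in WT mice (2.15, 1.14 and 1.31 without mouse 244) and 3.46, 1.79 and 1.68 in KO mice.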

How the data were processed

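Total RNA of the jejunum was hybridized to Affymetrix Mouse Transcriptome Arrays 1.0, with 1 array for each of 40 mice and 5 mice per group. As deposited by the authors, the main table gives log2 signals of 72688 probe sets. Its making is described in 2 ways: the methods of the paper give normexp correction of the background and then quantile normalization (limma), but the submitters' notes give RMA, the Affymetrix Expression Console and the Transcriptome Analysis Console; no version was used from them. The signals were analysed as deposited. Other deposited tables hold the authors' own comparisons (averages, folds, p-values and false discovery rates); none of these values was used, and only the gene annotation of 1 of them was.

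The 6732 control rows were left out, which left 65956 transcript clusters, of which 36559 carry 1 symbol. Groups were taken from the labels, and the labels give no batch. In limma 3.58.1 (R 4.3.3), group means were fitted and 13 comparisons tested with moderated statistics and Benjamini-Hochberg adjustment over all clusters at 0.05. The fit was tested on simulated arrays with planted changes. Deviations from group means were compared by permutation within groups in Python 3.11.15. The members, the 21 gene lists (210 of 225 genes were measured) and the tests were chosen with earlier results of these data known. Named genes are the 8 members, the 3 genes most like each, and from each list up to 4 genes that passed in most doxorubicin effects; some of these genes are not reported here. As alternatives, only the compared groups were fitted, and there were an analysis of variance without moderation, 3 filters, trend and robust variances, array weights, 2 scalings, a mean over clusters and each mouse left out. The p-values of the analysis of variance have the size that the spread of the compared groups alone gives. The B cell covariate, the relations with marker lists, the list counts under the alternatives and the covariate fit without mouse 244 were added later. Array number and signal over background limit the precision. When the arrays were quantile normalized again, 1281 clusters rose and 1790 fell in WT mice at day 3, in place of 1713 and 1402. In KO mice at day 7, 111 rose and 605 fell with each array centred on its median, in place of 210 and 397, and in WT mice at day 7 the numbers were 9 and 12 after quantile normalization and 6 and 7 after centring, in place of 7 and 5. Figures were drawn with matplotlib 3.10.9.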

Additional observations from a re-analysis of the deposited data

Results flagged for a closer look

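In 5 of the 64 combinations of a gene and a group, 1 mouse stood apart from the other 4 by more than 0.71 of the range of the group, which chance does in about 1 in 20. In WT-Dox3, mouse 244 had a Clu signal of 11.69 and an Spp1 signal of 7.83, each the highest of the 5. Ly6a was at 9.74 in mouse 136 of KO-Dox7, the lowest of its group, while the other 4 mice were at 11.82 to 12.60. Anxa3 was at 7.04 in mouse 170 of WT-NaCl3, and Spp1 was at 5.54 in mouse 198 of WT-Dox7, each the highest of its group by a small difference in signal.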

How the results depend on the processing

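The number of the 8 genes that passed at day 3 in WT mice was 4, and it was 1 (Ly6a) with only the compared groups fitted and 0 in the analysis of variance without moderation. For day 7 against day 3 after doxorubicin, the number in WT mice went from 3 to 1 and 0 in these 2 settings, and in KO mice from 2 to 0 in the second. The p-values of the second also have the size that the spread of the compared groups alone gives. It therefore does not separate the lack of moderation from fewer arrays. Of 28 pairs, 16 in place of 7 passed with each array centred on its median. With 1 mouse left out, the numbers were 3 to 4 in WT mice and 3 to 4 in KO mice at day 3, 3 to 4 for the interaction with day, 2 to 3 and 1 to 3 for day 7 against day 3 in WT and KO mice, and 4 to 13 for the pairs; the other comparisons stayed at 0 to 0. Over 10 alternatives, 974 of 1001 single changes kept their call, 16 lost it and 11 gained it; with 1 mouse left out, 4136 of 4160 kept it, 18 lost it and 6 gained it. No change that passed reversed its sign in any of these. Changes that did not pass took the other sign 33 times over the alternatives and 95 times with 1 mouse left out. With only clusters above the median brightness or above background, Clu passed in the interaction with day (adjusted p = 0.0461 and 0.0305), and above background so did Ly6d at day 3 in KO mice. Anxa1 passed in KO mice at day 7 against day 3 in both (above background, adjusted p = 0.0324) and with array weights (adjusted p = 0.0305), while in WT mice it did not pass with array weights (adjusted p = 0.0502). Spp1 in WT mice did not pass with array weights (0.91, adjusted p = 0.0746). The cause of these differences was not tested, beyond fewer samples or clusters in a fit. No paired analysis was possible because mouse numbers are not shared between groups. A mean over clusters could change nothing, since each gene has 1. Signal over background limits Msln (not above the highest background probe set in 40 of 40 mice), Spp1 (39), Sprr1a (26), Anxa1 (24), Anxa3 (18) and Ly6d (16).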
